A study of Mus musculus with 48 samples.

Results

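The 35 genes described here are interferon response genes, that is, genes whose transcription is switched on when a cell senses type I or type II interferon. They were chosen by name from a list of well known interferon-induced genes, and their Ensembl identifiers were matched to mouse symbols. All 35 were found among the 54752 genes of the expression matrix. They comprise 3 IFIT proteins, 4 members of the OAS family, 2 Mx GTPases and viperin, ISG15 and its protease, 4 transcription factors, 4 nucleic acid sensors, 5 guanylate-binding proteins, 3 immunity-related GTPases, 2 membrane restriction factors and 5 other interferon-induced genes.

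Interferons bind receptors at the cell surface, and the receptor-bound kinases JAK1, TYK2 and JAK2 then phosphorylate STAT proteins. Type I interferon acts through a complex that includes STAT2 and IRF9 and binds the interferon-stimulated response element (ISRE) in promoters, whereas interferon gamma acts at the gamma-activated site (GAS) and through the transcription factor IRF1. The induced proteins sense or destroy viral RNA, attack the vacuoles of intracellular microbes or block viral entry, and many are also transcribed at a low tonic level without infection.

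Cardiomyocytes, cardiac blood endothelial cells (BECs) and lymphatic endothelial cells (LECs) of both heart and diaphragm were profiled by RNA-seq, in 48 libraries from 13 male Prox1-eGFP knock-in mice. Their eGFP reports the activity of Prox1, a transcription factor gene of lymphatic endothelium, from its own locus. All mice carried a subcutaneous osmotic minipump for several weeks. Pumps of the ctrl group delivered bovine serum albumin, those of the angII group angiotensin II with bovine serum albumin, and those of the angII+VEGFC group angiotensin II with VEGFCc156s, a form of VEGFC that activates the lymphatic receptor VEGFR3. Each population had 4 ctrl, 5 angII and 3 angII+VEGFC libraries, from mice that the labels give as 8 to 16 months old in ctrl and angII and 8 to 15 months old in angII+VEGFC. Endothelial cells were sorted as DAPI-negative, CD45.2-negative and CD31-positive cells, with eGFP separating LECs from BECs, while cardiomyocytes were pelleted at low speed from the digested heart. The endothelial libraries were sequenced in 2 sets, called batch 1 and batch 2 here, and the cardiomyocyte libraries in a set of their own.

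Values are in TPM (an abundance per transcript length, scaled so that every library has nearly the same sum), and levels of different genes are therefore compared per length. Sequencing depth is unknown from such values, and the genes detected (those reaching 1 TPM) numbered from 12924 to 25896 per library. This number was highest in the angII libraries of both LEC populations, with medians of 22814 in the heart and 20742 in the diaphragm against 18359.5 and 16861.5 in ctrl. The defining markers followed the labels: Prox1 was at 97.56 to 229.8 TPM in heart LECs and 174.6 to 314.9 TPM in diaphragm LECs, but at 1.062 to 5.717 TPM in heart BECs and 0.8671 to 6.178 TPM in cardiomyocytes. The summed level of 5 BEC markers (Nos3, Flt1, Emcn, Ly6c1 and Cd36) was 7587 to 13010 TPM in heart BECs, 1233 to 4251 TPM in heart LECs and 459.4 to 1031 TPM in diaphragm LECs. Cardiomyocyte libraries held 734.3 to 2544 TPM of 12 leukocyte and macrophage markers, against at most 374.3 TPM in any endothelial library. One library, diaphragm LEC of angII mouse 4, stood apart from its population with a median correlation of 0.7309 to the others, and the treatment differences named for diaphragm LECs are given with and without it where it enters them. In bulk libraries of this kind, fewer cells of a type and less RNA per cell cannot be told apart.

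RefSeq promoter sequence of mouse build GRCm38.p6 was matched for 25 of the 35 members, and windows of 300 bases were searched on both strands for an ISRE core, GAAANNGAAA, and a GAS, TTCNNNGAA, where N is any base. An ISRE core was present in 16 of the 25 members (64.0%), against 3.99% of the 27025 genes with a promoter sequence, and in 13 of 31 other interferon-induced genes (41.9%). A GAS was present in 8 of the 25 members (32.0%), against 9.55% of all genes, and 2 members had ISRE and GAS matches that overlap. A match is a description of the letters and not of binding. Windows of 5 members that have a match are shown. Rsad2, Irgm1, Ifit1 and Isg15 are among the genes named below, and in Oas3 a match stands beside a level under 1 TPM. The members searched that had no ISRE core match were Irf7, Oasl1, Oasl2, Ifit2, Irf1, Irf9, Ifi35, Ifi44 and Xaf1. They are also named below and are not shown. Each window is the 250 bases before the annotated start, written 5′ to 3′ on the strand of the gene, with ISRE core matches in capitals.
Rsad2, chr12:26456453-26456702, minus strand: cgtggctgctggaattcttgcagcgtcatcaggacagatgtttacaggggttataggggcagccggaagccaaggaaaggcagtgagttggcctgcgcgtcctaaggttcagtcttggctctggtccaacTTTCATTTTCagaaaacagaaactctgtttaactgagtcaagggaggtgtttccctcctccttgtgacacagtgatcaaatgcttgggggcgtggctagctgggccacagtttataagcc
Irgm1, chr11:48871421-48871670, minus strand: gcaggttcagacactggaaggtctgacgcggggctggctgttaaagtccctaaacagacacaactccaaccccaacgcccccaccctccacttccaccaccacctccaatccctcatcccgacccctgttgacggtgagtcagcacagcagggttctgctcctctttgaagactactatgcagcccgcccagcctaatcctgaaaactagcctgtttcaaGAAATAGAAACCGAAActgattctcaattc
Ifit1, chr19:34640639-34640888, plus strand: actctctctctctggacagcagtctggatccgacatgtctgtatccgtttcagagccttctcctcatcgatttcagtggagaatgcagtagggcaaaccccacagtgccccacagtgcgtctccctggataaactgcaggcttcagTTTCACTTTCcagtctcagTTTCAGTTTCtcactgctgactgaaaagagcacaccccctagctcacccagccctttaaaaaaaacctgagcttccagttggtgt
Isg15, chr4:156200819-156201068, minus strand: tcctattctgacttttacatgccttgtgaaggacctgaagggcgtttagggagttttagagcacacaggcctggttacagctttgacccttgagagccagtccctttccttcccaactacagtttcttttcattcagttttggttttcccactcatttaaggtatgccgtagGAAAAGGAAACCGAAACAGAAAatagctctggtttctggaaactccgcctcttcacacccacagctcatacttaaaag
Oas3, chr5:120777660-120777909, minus strand: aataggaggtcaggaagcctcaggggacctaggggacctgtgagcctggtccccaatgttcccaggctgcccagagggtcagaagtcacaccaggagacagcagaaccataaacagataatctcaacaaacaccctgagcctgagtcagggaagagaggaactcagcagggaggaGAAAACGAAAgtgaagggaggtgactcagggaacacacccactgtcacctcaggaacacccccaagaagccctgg
Counted from its first base as printed, the match nearest to the start began 24 bases before it in Irgm1, 66 in Isg15, 75 in Oas3, 85 in Ifit1 and 120 in Rsad2. Matches overlapped in Irgm1 (2 matches) and Isg15 (3 matches) and were separate in Ifit1 (2 matches).

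The populations differed first in the level of these genes. Heart BECs had the highest median of the 4 populations for 31 of the 35 members, and cardiomyocytes had the lowest for 25. The same 3 genes led in every population. Ifitm3, which blocks viral fusion with endosomes, had medians of 4186, 5171, 3890 and 1036 TPM in LECs of the heart, LECs of the diaphragm, BECs and cardiomyocytes. Irf1, the transcription factor downstream of interferon gamma, had medians of 441.5, 506.9, 1448 and 197.7 TPM in the same order. Bst2 (tetherin), which holds budding virus at the cell membrane, had medians of 490.8, 452.9, 578.5 and 132.7 TPM. At the other end, Oas3, a synthetase of the 2-5A signal for RNase L, and Mx1, an antiviral GTPase, had medians under 1 TPM in every population, and the third lowest was Oas2 in both LEC populations (2.021 and 0.6015 TPM), Zbp1 in heart BECs (8.095 TPM) and Mx2 in cardiomyocytes (2.237 TPM). The other 33 members were at 1 TPM or more in all 12 heart BEC libraries.

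**Figure D1:**
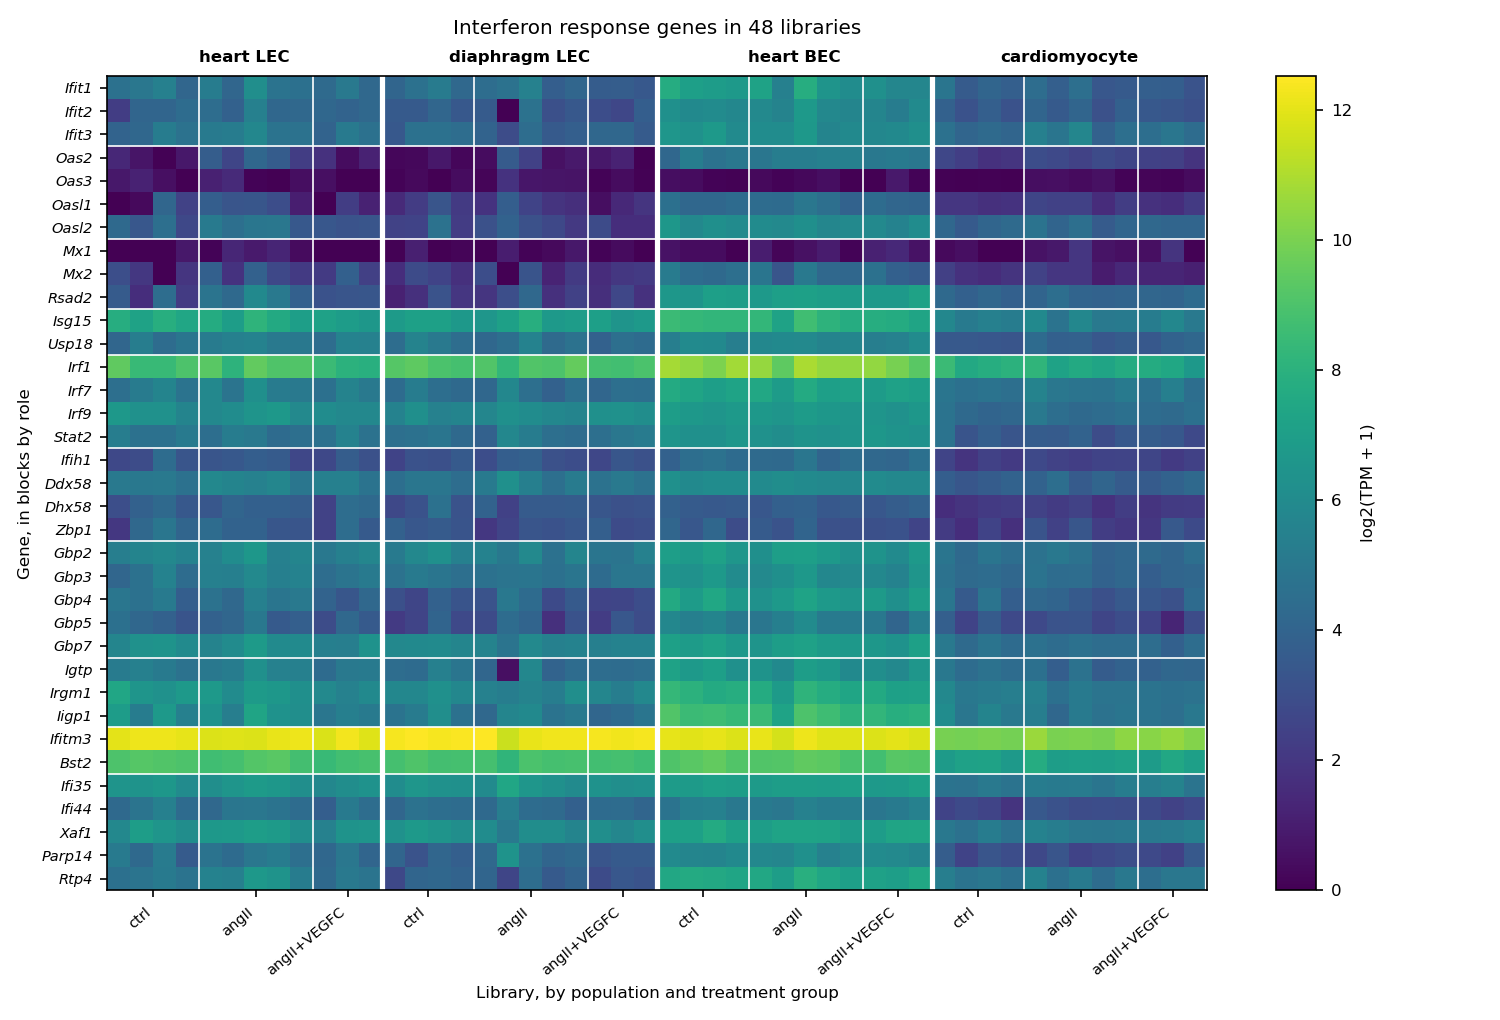
Heatmap of the 35 members (rows, grouped by role) in the 48 libraries (columns, grouped by population and treatment), coloured by log2(TPM + 1). By median, 31 of the 35 members are brightest in heart BECs, and Ifitm3 is high and Oas3 and Mx1 are low in all 4 populations.

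Heart LECs had significantly lower levels of most members than heart BECs. In the limma fit on log2(TPM + 1), 30 of the 35 were lower in heart LECs with an adjusted p under 0.05 and 0 were higher, where 8.64% of all genes tested were lower and 8.94% higher. The median difference over the members was −1.25 log2 units, against 0.15 over all genes. Libraries of both populations come from the same 12 mice, and 26 of the members (74.3%) were higher in BECs than in heart LECs of every mouse, against 4.83% of all genes. All 12 BEC libraries lay above all 12 heart LEC libraries for 7 members (Oasl2, Rsad2, Irf7, Stat2, Gbp4, Parp14 and Rtp4), against 1.99% of all genes, and for 0 members did they all lie below, against 1.55% of all genes.

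Oas2 and Rsad2 had the largest fitted differences of the members. Oas2, which makes 2-5A in response to double-stranded RNA, ranged from 0.04792 through a median of 2.021 to 16.9 TPM in heart LECs. In heart BECs it ranged from 16.86 through 32.17 to 42.1 TPM. The ranges overlapped only at the highest LEC and the lowest BEC library, the medians differed 15.9-fold, and the fitted difference was −3.32 log2 units (SE 0.30, adjusted p = 7.98e-11). Rsad2 (viperin), a radical SAM enzyme that terminates viral RNA synthesis, ranged from 2.076 through 12.18 to 59.64 TPM in heart LECs and from 89.76 through 119.5 to 149.4 TPM in heart BECs, without overlap. Its difference was −3.21 log2 units (SE 0.25, adjusted p = 5.11e-12) and its medians differed 9.81-fold. Oasl1 and Oasl2, which resemble OAS enzymes, differed by −2.40 (SE 0.35, adjusted p = 2.65e-06) and −2.11 (SE 0.24, adjusted p = 1.35e-08) log2 units, and Oas3 by 0.20 without passing the test. Mx2, an antiviral GTPase, had medians of 3.79 TPM (heart LECs) and 19.48 TPM (BECs), a difference of −1.86 (SE 0.34, adjusted p = 8.86e-05), whereas Mx1 was near 0 in both and differed by −0.32 without passing. All 3 IFIT genes, whose proteins bind the 5′ end of foreign RNA, were lower in heart LECs. Ifit2 showed the largest of these differences, −1.78 log2 units (SE 0.32, adjusted p = 6.88e-05), with medians of 16.99 and 57.61 TPM.

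The GTPases that attack pathogen vacuoles also differed. All 5 guanylate-binding proteins were lower in heart LECs, with a median of −1.14 log2 units, and Gbp4 differed most. It ranged from 9.189 through 24.77 to 43 TPM in heart LECs and from 74.38 through 110.1 to 191 TPM in heart BECs, without overlap (−2.40 log2 units, SE 0.21, adjusted p = 5.71e-11). All 3 immunity-related GTPases were lower as well, with a median of −1.30. Iigp1 led them, with medians of 57.97 and 342.7 TPM and ranges that met at 156.4 and 154.2 TPM (−2.47 log2 units, SE 0.23, adjusted p = 1.68e-10). Among the 4 transcription factors, all were lower in heart LECs. Irf7, which amplifies type I interferon production, ranged from 23.19 through 34.09 to 74.44 TPM in heart LECs and from 114.3 through 142.7 to 199.1 TPM in heart BECs (−2.004 log2 units, SE 0.17, adjusted p = 3.23e-11). Stat2 and Irf1 differed by −1.52 and −1.61 log2 units, and Irf9 by −0.51. Rtp4, an interferon-induced chaperone of receptors at the cell surface, ranged from 18.66 through 33.91 to 101.3 TPM in heart LECs and from 125.3 through 171.1 to 235.9 TPM in heart BECs (−2.22 log2 units, SE 0.20, adjusted p = 6.12e-11).

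Several of the other members differed less or did not pass the test. Isg15, a ubiquitin-like modifier, and Usp18, which removes it from proteins, were both lower in heart LECs by only −0.66 log2 units, with Isg15 medians of 157 and 284.9 TPM. Of the 4 nucleic acid sensors, Ifih1 (MDA5) and Ddx58 (RIG-I) were lower by −1.07 and −0.76, while Dhx58 (LGP2) and Zbp1, a sensor of Z-form nucleic acids, differed by 0.07 and 0.37 without passing the test. Ifitm3 differed by 0.09 log2 units without passing, and Bst2 by −0.27 at an adjusted p of 0.0499. The remaining 4, Ifi35, Ifi44, Xaf1 and Parp14, were lower by −0.59 to −1.27 log2 units. The BEC marker sum of single heart LEC libraries was 11.6% to 39.9% of the heart BEC median, and its part in the levels of members that were this low in heart LECs, such as Oas2 and Rsad2, was not tested.

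**Figure D2:**
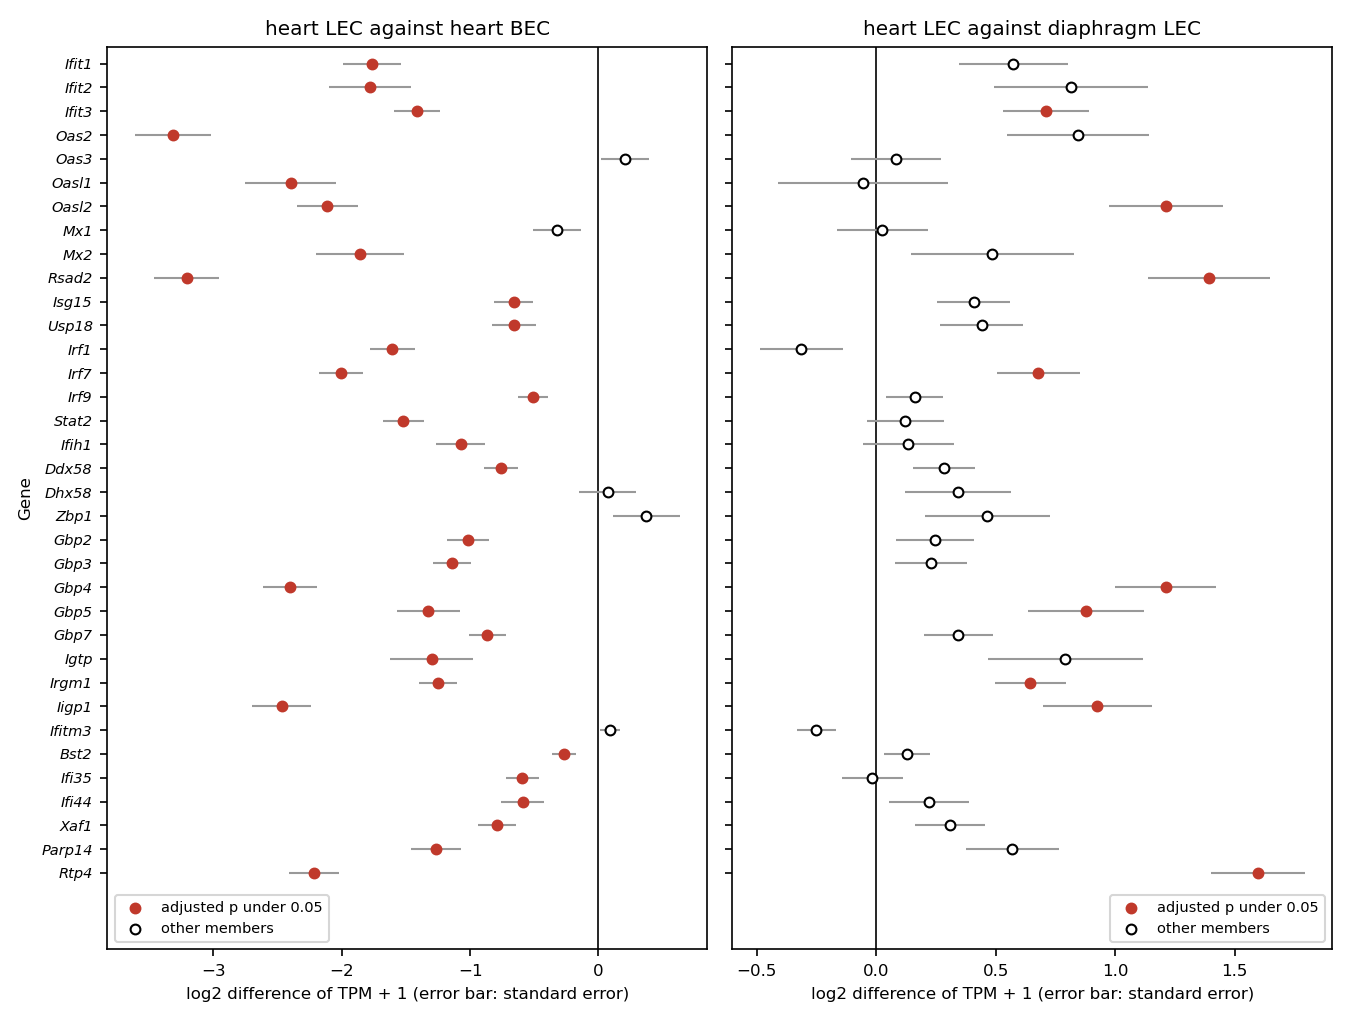
Fitted log2 differences of the members between populations (horizontal axis, log2 units) with standard error bars, by role from top to bottom, filled where the adjusted p was under 0.05. Against heart BECs, most members of heart LECs lie left of 0, with Oas2 at −3.32 and Rsad2 at −3.21, and against diaphragm LECs 9 members lie significantly to the right, led by Rtp4 at 1.60.

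LECs of the 2 organs differed less. Between heart LECs and diaphragm LECs, 9 members were significantly higher in the heart and 0 were lower, where 2.67% of all genes tested were higher and 1.88% lower, and the median difference was 0.41 log2 units against 0.10 over all genes. No member separated all 12 libraries of the populations in either direction, where 0.217% of all genes lay entirely above and 0.0862% entirely below. Rtp4 had a median of 33.91 TPM in heart LECs and 12.69 TPM in diaphragm LECs, with a difference of 1.60 log2 units (SE 0.20, adjusted p = 6.20e-07). Rsad2 had medians of 12.18 and 2.884 TPM (1.39 log2 units, SE 0.26, adjusted p = 4.05e-04). Gbp4 and Oasl2 each differed by 1.21 log2 units (adjusted p = 2.20e-04 and 9.61e-04). Iigp1 (0.92), Gbp5 (0.88), Ifit3 (0.71), Irf7 (0.68) and Irgm1 (0.64) made up the rest of the 9, with adjusted p between 0.005745 and 0.02764. Gbp4, Irgm1, Iigp1 and Rtp4 were higher in the heart in each of the 11 mice that gave both libraries, and Ifitm3 was higher in only 1. With the mouse as a block 11 members were called, without diaphragm LECs of angII mouse 4 12 were called, and with the ctrl libraries alone 1 was called (Gbp4). The 5 BEC markers were all significantly higher in heart LECs than in diaphragm LECs, with a median difference of 2.15 log2 units, and 4 of the 5 LEC markers were lower. The part of that marker difference in the 9 members was not tested.

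Diaphragm LECs and heart BECs separated for more members. All 12 BEC libraries lay above all 12 diaphragm LEC libraries for 19 of the 34 members that could be compared (55.9%), against 3.51% of all genes, and for 0 members did they lie below, against 2.8%. The 19 included Rsad2 and Gbp4, and also Oas2, Iigp1, Ifit2, Ifit3, Irf9, Gbp7 and Xaf1, which overlapped between heart LECs and BECs.

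Cardiomyocytes had significantly lower levels than heart BECs for 33 of the 34 members tested and higher levels for 0. This stands beside 64.1% of all genes lower and 10.8% higher. The libraries differ in isolation and in sequencing set as well as in cell type, which cannot be told apart. The median difference was −2.33 log2 units over the members and −0.61 over all genes. The largest differences were those of Iigp1 (−3.31 log2 units), Gbp4 (−3.00), Parp14 (−2.88), Stat2 (−2.88) and Rsad2 (−2.78). Mx1 did not pass. All 12 BEC libraries lay above all 12 cardiomyocyte libraries for 31 of the 34 members that could be compared (91.2%), against 23.4% of all genes, and for 0 members did they all lie below, against 3.5%. Cardiomyocyte levels were not lower than LEC levels throughout: Oas2, Oasl2, Mx1 and Rsad2 had higher medians in cardiomyocytes than in heart LECs, and Rsad2 ranged from 13.08 through 15.5 to 22.17 TPM there.

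Other genes of the pathway did not share the size of these differences. Of 11 interferon ligand genes, those with a median of 1 TPM or more numbered 2 in each LEC population, 1 in BECs and 0 in cardiomyocytes. Ifnb1, which encodes interferon beta, ranged from 0 through a median of 5.437 to 12.27 TPM in heart LECs and from 0 through 2.737 to 6.215 TPM in heart BECs. The medians in these populations were 43.7 and 57.22 TPM for the receptor subunit gene Ifnar1 and 187.4 and 192.3 TPM for the kinase gene Jak1. Of 29 interferon pathway genes tested between heart LECs and heart BECs, 9 were lower in heart LECs and 1 was higher (Ikbke, by 1.84 log2 units). This stood beside 8.64% of all genes lower and 8.94% higher, and the median over these pathway genes was −0.25. Socs1, which feeds back on JAK kinases and is itself induced, differed most, with medians of 12.26 and 70.66 TPM (−2.32 log2 units), followed by the interferon gamma receptor gene Ifngr1 at −0.89 and its partner kinase Jak2 at −0.79. A second list of 40 interferon-induced genes was lower in heart LECs for 32 and higher for 1, Ifi27l2a (3.01 log2 units), beside the same shares of all genes. Its median was −1.17. Between heart and diaphragm LECs, 12 of these 40 were higher in the heart and 0 lower, against 2.67% and 1.88% of all genes.

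Treatment was then compared within each population, to ask whether angiotensin II changed the interferon response genes and whether VEGFCc156s added to it changed them further. The 3 comparisons of a population share libraries (ctrl or angII or angII+VEGFC each enter 2 of them), so their values are given side by side and are not independent. In none of the 12 comparisons did a member reach an adjusted p under 0.05 in limma. In heart LECs this stood beside 0.0261% of all genes called for angII against ctrl, 0% for angII+VEGFC against angII and 0% for angII+VEGFC against ctrl. In diaphragm LECs and in heart BECs 0% of all genes were called in each comparison. In cardiomyocytes 0.0892% of all genes were called for angII against ctrl, 0% for angII+VEGFC against angII and 0.663% for angII+VEGFC against ctrl. The counts that follow are of members with an unadjusted p under 0.05, each beside the share of all genes at the same threshold, and they are descriptions rather than calls. Statements that the libraries of treatment groups do not overlap are descriptions too, and the share of all genes that separate in this way is not given.

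**Figure D3:**
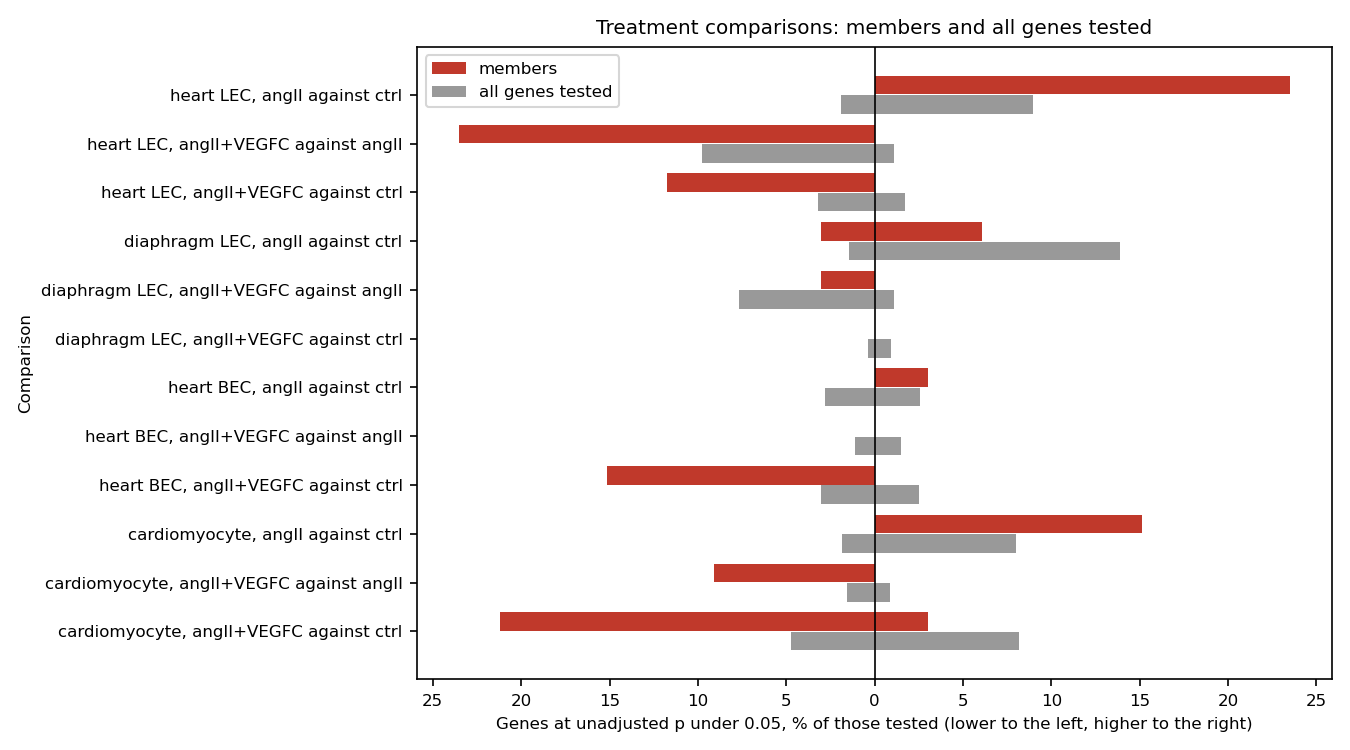
Share of genes with an unadjusted p under 0.05 (percent, bars from 0, lower to the left and higher to the right) in each treatment comparison, for the members tested (red) and all genes tested (grey). In heart LECs the bars are those of 8 of 34 members to the right for angII against ctrl, beside 8.94% of all genes, and of 8 of 34 to the left for angII+VEGFC against angII, beside 9.75%.

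In heart LECs, 8 of the 34 members tested were higher in angII than in ctrl at this threshold and 0 were lower, against 8.94% and 1.93% of all genes. The median over the members, 0.21 log2 units, was close to that over all genes, 0.23. The member median was 0.11 without ctrl mouse 1, 0.49 without ctrl mouse 9 and 0.72 with the number of detected genes as a covariate. The median over all genes in these settings is not given. Oas2 was at 1.621, 0.6271, 0.04792 and 0.7241 TPM in the ctrl libraries, at 11.94, 5.03, 16.9, 11.49 and 3.8 TPM in the angII libraries and at 2.421, 0.3219 and 1.289 TPM in the angII+VEGFC libraries. All 5 angII libraries lay above all others. The fitted difference was 2.61 log2 units for angII against ctrl (SE 0.58, adjusted p = 0.157) and −2.33 for angII+VEGFC against angII (SE 0.69, adjusted p = 0.413). Rsad2 was at 11.02, 2.076, 21.53 and 3.506 TPM in ctrl, 26.8, 18.28, 59.64, 32.67 and 13.35 TPM in angII and 8.024, 8.749 and 9.208 TPM in angII+VEGFC. The ctrl libraries overlapped the angII libraries for this gene, the angII+VEGFC libraries did not, and the difference for angII against ctrl was 1.63 log2 units (SE 0.47, adjusted p = 0.250). Rtp4 was at 23.89, 27.11, 34.88 and 26.24 TPM in ctrl, 46.53, 42.1, 101.3, 85.12 and 37.12 TPM in angII and 18.66, 32.94 and 27.21 TPM in angII+VEGFC. Its angII libraries lay above all others, with 1.02 log2 units against ctrl (SE 0.32, adjusted p = 0.291) and −1.11 for angII+VEGFC against angII (SE 0.38, adjusted p = 0.414). The other 5 higher members were Mx2, Oasl2, Gbp3, Usp18 and Ddx58, with 0.55 to 1.37 log2 units. The count of 8 was 4 without angII mouse 14 and 5 without ctrl mouse 1, 9 or 11 or angII mouse 12 or 15.

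In the 2 sequencing batches the angII against ctrl difference of Oas2 was 2.75 log2 units in batch 1 and 2.21 in batch 2, that of Rsad2 0.96 and 2.56, and that of Rtp4 0.99 and 1.05. Between angII+VEGFC and angII, 0 members were higher and 8 lower in heart LECs, against 1.09% and 9.75% of all genes, with medians of −0.39 over the members and −0.37 over all genes. Oas2, Rtp4, Oasl2, Irf1, Gbp4, Irgm1, Iigp1 and Xaf1 were the 8, with differences from −0.71 to −2.33 log2 units. By batch the difference of Oas2 was −3.08 and −1.47 and that of Rtp4 −0.81 and −1.28, with 1 angII+VEGFC library in batch 1. The count was 3 without angII+VEGFC mouse 6 and 5 without angII mouse 15.

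**Figure D4:**
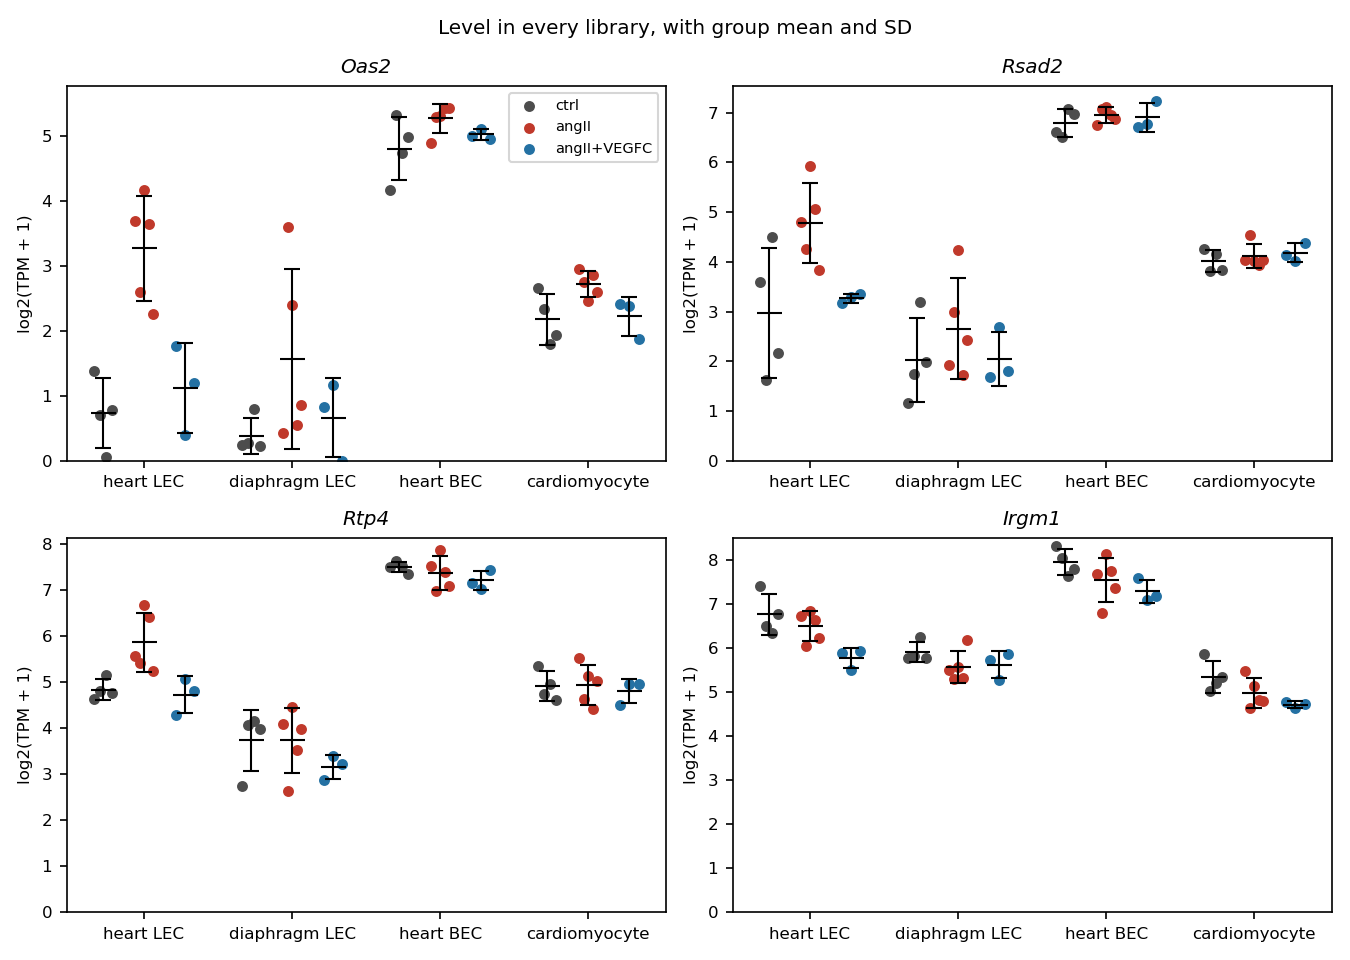
Level of Oas2, Rsad2, Rtp4 and Irgm1 (vertical axes, log2(TPM + 1)) by population and treatment, with 1 point per library and lines at each group's mean ± SD. In heart LECs the 5 angII points of Oas2 and Rtp4 lie above all ctrl and angII+VEGFC points, and the 3 angII+VEGFC points of Irgm1 lie below all others.

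BEC markers moved with these genes. Their summed level was 1233 to 1999 TPM in the ctrl heart LEC libraries, 1727 to 4251 TPM in angII and 1464 to 1573 TPM in angII+VEGFC, and it was highest in angII mouse 14 (39.9% of the heart BEC median) and angII mouse 15 (38.5%), the same libraries that had the highest Rsad2 and Rtp4. Of the 5 markers, Ly6c1, a surface antigen that is itself known to respond to interferon, and Cd36, a fatty acid transporter, carried this, with 2.03 and 1.07 log2 units for angII against ctrl and adjusted p of 0.102 and 0.264. Nos3, Flt1 and Emcn differed by 0.12, 0.20 and −0.25. Over the 12 heart LEC libraries the log2 marker sum correlated with log2 Rtp4 at r = 0.93 (Spearman's rho 0.87, and r = 0.71 without the 2 libraries farthest from the median), with Rsad2 at r = 0.84 (rho 0.85, then 0.75), with Oas2 at r = 0.77 (rho 0.64, then 0.51) and with Irgm1 at r = 0.25 (rho 0.26, then −0.04). Rtp4 and Rsad2 had the highest r of the members tested. Over the 34 members the median r was 0.50 and 31 were positive, against 0.06 and 58.5% over all genes. In diaphragm LECs 29 of 33 members were positive with a median r of 0.38, against 42.7% and −0.06 over all genes, and Oas2 was at r = 0.02. These correlations share the treatment groups and are descriptions. With the log2 marker sum as a covariate, 2 members were under the threshold for angII against ctrl, the member median was −0.10, and Oas2 differed by 1.99 log2 units (SE 0.80), Rsad2 by 0.53 and Rtp4 by 0.22. With Ly6c1 left out of the sum the count was also 2, the member median was 0.07, and the differences were 2.24 for Oas2, 1.11 for Rsad2 and 0.60 for Rtp4. With either sum, 1 member was under the threshold for angII+VEGFC against angII.

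**Figure D5:**
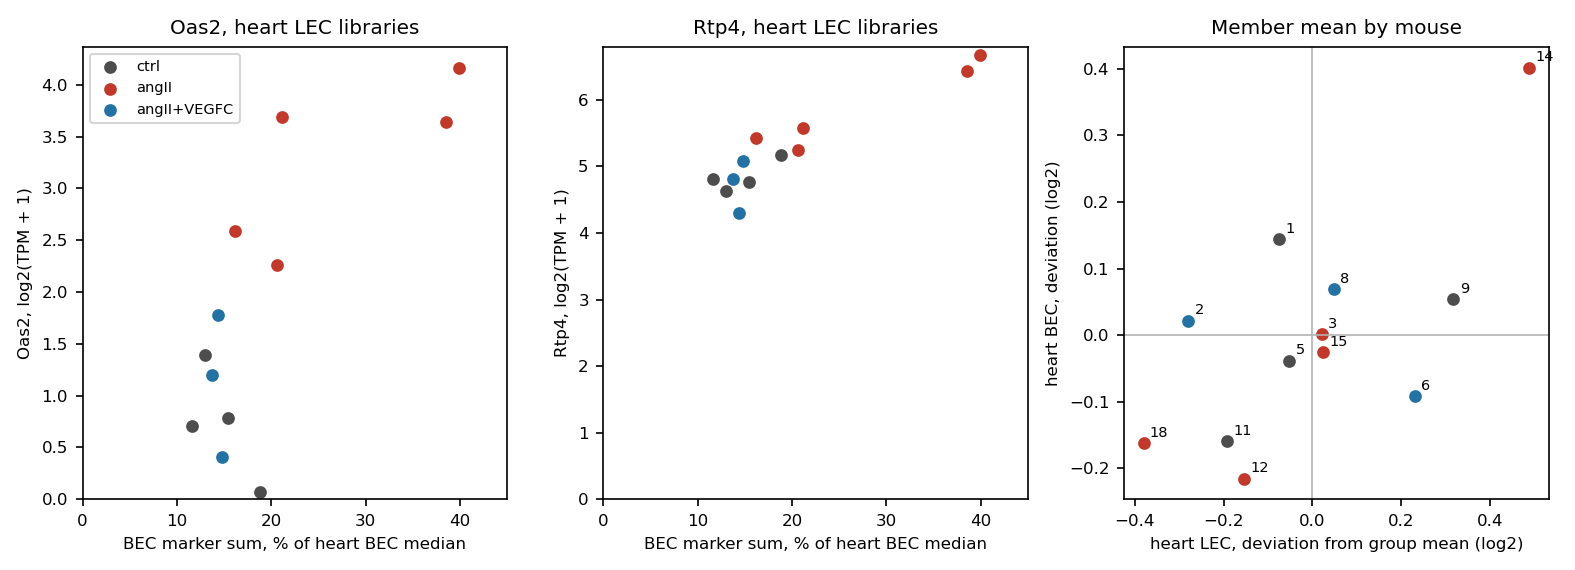
Left and middle, Oas2 and Rtp4 (log2(TPM + 1)) against the summed BEC markers (percent of the heart BEC median) in the 12 heart LEC libraries. Right, deviation of the mean over members from the group mean (log2 units) in heart LECs against heart BECs of the same mouse, where angII mouse 14 lies highest on both axes, at 0.489 and 0.402.

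Irgm1, an immunity-related GTPase that protects host membranes from the other members of its family, followed another order. It was at 169.8, 90.44, 80.87 and 108.6 TPM in the ctrl heart LEC libraries, at 106, 65.34, 113.1, 98.52 and 73.69 TPM in angII and at 57.9, 44.61 and 60.26 TPM in angII+VEGFC. The 3 angII+VEGFC libraries lay below all 9 others. The difference of angII+VEGFC from ctrl was −1.06 log2 units (SE 0.29, adjusted p = 0.915), within batches −1.37 and −0.74, and with the BEC marker sum as a covariate −1.08. For this comparison 0 members were higher and 4 lower, against 1.73% and 3.22% of all genes, with medians of −0.16 over the members and −0.13 over all genes. The member median ran from −0.30 without ctrl mouse 1 to 0.01 without angII+VEGFC mouse 2, so its sign rests on that library. The other 3 were Irf1 (−0.70 log2 units), Isg15 (−0.58) and Bst2 (−0.43), and the count was 2 without ctrl mouse 9.

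In diaphragm LECs, 2 of the 33 members tested were higher in angII than in ctrl and 1 was lower, against 13.9% and 1.45% of all genes. The member median was −0.05 log2 units while the median over all genes was 0.28. The sign of the member median turned with single libraries, since it was −0.24 without ctrl mouse 1, 0.15 without ctrl mouse 5 and 0.07 without ctrl mouse 9. Parp14, a mono-ADP-ribosyltransferase, was at 15.94, 8.193, 16.27 and 13.03 TPM in ctrl, at 17.6, 84.73, 24.64, 16 and 18.72 TPM in angII and at 9.006, 10.82 and 10.7 TPM in angII+VEGFC. The 84.73 TPM came from mouse 4, the library that stood apart, and the other 4 angII libraries lay between 16 and 24.64 TPM. Its difference was 0.88 log2 units for angII against ctrl (SE 0.39, adjusted p = 0.315) and 0.49 without that library. Within batches 1 and 2 it was 1.01 and 0.69. Xaf1, an interferon-induced partner of apoptosis inhibitors, was at 78.85, 109.8, 87.52 and 70.93 TPM in ctrl, 66.62, 32.49, 69.18, 68.63 and 49.28 TPM in angII and 71.25, 52.49 and 71.03 TPM in angII+VEGFC. All 5 angII libraries lay below all 4 ctrl libraries, lowest in mouse 4, and the difference was −0.61 log2 units (SE 0.24, adjusted p = 0.303), or −0.42 without mouse 4, and −0.63 and −0.59 within the batches. With the number of detected genes as a covariate it was 0.14, so the direction depends on that setting. The third was Ddx58, at 0.58 log2 units (SE 0.27, adjusted p = 0.325), or 0.38 without mouse 4. The count of 3 was 1 without ctrl mouse 5 or angII mouse 4, 0 without ctrl mouse 9 or angII mouse 18, and 5 without angII mouse 3.

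In the same LECs, 0 members were higher and 1 lower in angII+VEGFC than in angII, against 1.12% and 7.66% of all genes, with medians of −0.15 and −0.21 log2 units. The 1 was Parp14, at −1.12 log2 units (SE 0.45, adjusted p = 0.567), or −0.67 without mouse 4, and Ifit1 (−0.69, or −0.65 without mouse 4) and Gbp4 (−0.84, or −0.48 without mouse 4) came next. The member median was −0.0099 without angII+VEGFC mouse 2. The count was 2 without angII mouse 3, 4 or 15 and 0 without angII+VEGFC mouse 2 or 6. Between angII+VEGFC and ctrl, 0 were higher and 0 lower, against 0.927% and 0.39% of all genes, and 1 differed without ctrl mouse 1, ctrl mouse 5 or angII+VEGFC mouse 8. The nearest were Ifit1 at −0.78, Irf9 at 0.42 and Usp18 at −0.64 log2 units, each with an adjusted p of 1, and the member median was −0.20 against 0.05 over all genes, but 0.03 without ctrl mouse 5. Irgm1 in diaphragm LECs was at 53.79 to 75.85 TPM in ctrl, 38.55 to 72.23 TPM in angII and 37.91 to 57.23 TPM in angII+VEGFC, and the groups overlapped.

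In heart BECs, where the members were highest, 1 of the 33 tested was higher in angII than in ctrl and 0 were lower, against 2.57% and 2.83% of all genes. The 1 was Oas2, at 16.86, 38.73, 25.72 and 30.71 TPM in ctrl, 28.71, 38.17, 38.52, 42.08 and 42.1 TPM in angII and 30.85, 33.49 and 30.04 TPM in angII+VEGFC. The groups overlapped, and the difference of angII from ctrl was 0.49 log2 units (SE 0.18, adjusted p = 0.862), and 0.71 and 0.28 within batches 1 and 2. For angII+VEGFC against angII, 0 members were higher and 0 lower, against 1.47% and 1.12% of all genes, with Irf7 (−0.37), Ifit1 (−0.81) and Isg15 (−0.46) nearest. For angII+VEGFC against ctrl, 0 were higher and 5 lower, against 2.49% and 3.02% of all genes, and the member median was −0.31 log2 units against −0.01, but −0.07 without angII+VEGFC mouse 6. Ifit1 was at 215.8, 133.6, 120.4 and 106.2 TPM in ctrl, 147.3, 42.65, 219.7, 87.27 and 66.74 TPM in angII and 76.35, 52.23 and 51.83 TPM in angII+VEGFC. The 3 angII+VEGFC libraries lay below all 4 ctrl libraries, with the angII libraries spread over both (−1.28 log2 units against ctrl, SE 0.44, adjusted p = 0.858, and −1.61 and −0.91 within the batches). Isg15 was at 296.6 to 374.5 TPM in ctrl, 148.4 to 403.4 TPM in angII and 156.3 to 222.3 TPM in angII+VEGFC (−0.77 log2 units against ctrl, SE 0.27, and −0.68 and −0.74 within the batches). Irgm1 was at 320.5, 261.8, 199 and 222.3 TPM in ctrl, 204, 110.6, 279.5, 213.6 and 164 TPM in angII and 192.4, 136 and 144.1 TPM in angII+VEGFC. As for Ifit1 and Isg15, the angII+VEGFC libraries lay below the ctrl libraries (−0.74 log2 units, SE 0.27, adjusted p = 0.858, and −0.89 and −0.53 within batches 1 and 2). Igtp (−0.68) and Zbp1 (−0.62) completed the 5. These BEC counts moved with single libraries. That for angII against ctrl was 0 without ctrl mouse 1, 5 without ctrl mouse 11 and 7 without angII mouse 14, and that for angII+VEGFC against angII was 1, 3 or 6 without angII+VEGFC mouse 6, angII mouse 12 or angII+VEGFC mouse 2. For angII+VEGFC against ctrl it was 1 without angII+VEGFC mouse 6, 2 without ctrl mouse 1, 8 without ctrl mouse 5 and 9 without angII+VEGFC mouse 2 or 8.

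In cardiomyocytes, 5 of the 33 members tested were higher in angII than in ctrl and 0 were lower, against 8% and 1.85% of all genes, with medians of 0.18 and 0.12 log2 units, the former 0.03 without ctrl mouse 5. Ifi44, a GTP-binding protein of the antiviral response, was at 4.758, 6.028, 4.907 and 2.662 TPM in ctrl, 10.35, 7.909, 6.501, 6.834 and 6.481 TPM in angII and 6.03, 4.596 and 5.737 TPM in angII+VEGFC. All angII libraries lay above all others (0.70 log2 units against ctrl, SE 0.21, adjusted p = 0.217). Oas2 was at 2.469 to 5.283 TPM in ctrl, 4.492 to 6.734 TPM in angII and 2.685 to 4.352 TPM in angII+VEGFC (0.59 log2 units for angII against ctrl, SE 0.22, adjusted p = 0.356). Usp18 (0.48), Zbp1 (0.74) and Ifit3 (0.68) were the other 3. Without ctrl mouse 11 the count was 2. The 12 leukocyte and macrophage markers summed to 734.3 to 956.7 TPM in ctrl, 1215 to 2150 TPM in angII and 1177 to 2544 TPM in angII+VEGFC, and 8 of the 10 tested were higher in angII than in ctrl at an unadjusted p under 0.05. Their part in the cardiomyocyte values was not tested.

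Cardiomyocytes of angII+VEGFC mice had 0 members higher and 3 lower than those of angII mice, against 0.848% and 1.56% of all genes, namely Gbp3 (−0.52 log2 units), Oas2 (−0.62) and Ifi44 (−0.54), and the medians were −0.22 and −0.03, the former −0.07 without angII mouse 3. This count was 0 without angII mouse 3 and 7 without angII mouse 15. Against ctrl, 1 was higher and 7 lower in angII+VEGFC, against 8.15% and 4.7% of all genes, with a median of −0.10 against 0.11, turning to 0.02 without angII+VEGFC mouse 8. Irgm1 was at 57.17, 31.39, 35.82 and 39.54 TPM in ctrl, 43.81, 23.98, 34.48, 27.4 and 27.05 TPM in angII and 26.62, 23.85 and 25.46 TPM in angII+VEGFC. The 3 angII+VEGFC libraries lay below all 4 ctrl libraries (−0.70 log2 units, SE 0.23, adjusted p = 0.200). Igtp (−0.65), Gbp3 (−0.52), Irf1 (−0.74), Mx2 (−0.76), Iigp1 (−0.70) and Gbp5 (−0.86) were also lower and Ifi35 (0.46) was higher. Irgm1 thus had its 3 angII+VEGFC libraries below its 4 ctrl libraries in heart LECs, heart BECs and cardiomyocytes, which come from the same mice and are not independent, and not in diaphragm LECs. The gene was followed across populations after its values were seen, and it passed the adjusted threshold in none of them. Without ctrl mouse 1 the count was 1, without angII+VEGFC mouse 6 it was 3, and without ctrl mouse 9, ctrl mouse 11 or angII+VEGFC mouse 2 it was 5.

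The other lists were counted at the same unadjusted threshold. Of the 40 other interferon-induced genes, 9 were higher and 0 lower in angII than in ctrl in heart LECs, against 8.94% and 1.93% of all genes. Between angII+VEGFC and angII, 0 were higher and 6 lower, against 1.09% and 9.75% of all genes. In heart BECs these counts were 0 and 1 (2.57% and 2.83% of all genes), and 0 and 1 (1.47% and 1.12%). In diaphragm LECs they were 0 and 0 (13.9% and 1.45%), and 1 and 2 (1.12% and 7.66%). Of the interferon pathway genes, 1 of 28 was higher and 0 lower for angII against ctrl in heart LECs. For angII+VEGFC against angII, 0 were higher and 2 lower there, beside the heart LEC shares of all genes given above.

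Whether treatment differences themselves differed between endothelial populations was tested by interaction. For angII against ctrl in heart LECs against heart BECs, 0 members were called, where 0% of all genes were, and 6 members were at an unadjusted p under 0.05, against 7.19% of all genes. The differences of differences were 2.06 log2 units for Oas2 (SE 0.67, adjusted p = 0.505), 1.65 for Rsad2 (SE 0.58, adjusted p = 0.560) and 1.16 for Gbp3 (SE 0.34, adjusted p = 0.434), all larger in heart LECs. With the number of detected genes as a covariate Gbp3 was called (1.80 log2 units). For diaphragm LECs against heart BECs, 0 members were called (0% of all genes) and 2 were under the unadjusted threshold, against 11%. For heart LECs against diaphragm LECs, 0 were called, where 0.00611% of all genes were, and 5 were under the threshold, against 9.7%, among them Ifit3 (1.11 log2 units, or 0.91 without diaphragm LECs of angII mouse 4) and Xaf1 (0.97, or 0.77). For angII+VEGFC against angII, 0 members were called in each of the 3 pairs (0% of all genes in each), and 3, 1 and 3 were under the threshold, against 6.43%, 7% and 4.88% of all genes in the same order of pairs.

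The mean over members of log2(TPM + 1) in heart LECs was 4.83 ± 0.22 (SD, n = 4) in ctrl, 5.24 ± 0.32 (SD, n = 5) in angII and 4.65 ± 0.26 (SD, n = 3) in angII+VEGFC. In heart BECs it was 6.28 ± 0.13, 6.17 ± 0.24 and 6.01 ± 0.08 in the same order. Mouse 14 stood highest of the angII group in the 3 endothelial populations, and of the 35 members, 32 were above the group mean in its cardiac LECs, 29 in its diaphragm LECs, 34 in its BECs and 21 in its cardiomyocytes. The member mean exceeded the group mean by 0.489, 0.492, 0.402 and 0.138 log2 units in the same order. In cardiomyocytes angII mouse 3 was highest, with 30 members above the group mean and a member mean 0.339 log2 units above it.

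Across mice, the deviation of the member mean from the group mean in heart LECs correlated with that in diaphragm LECs of the same mouse at r = 0.68 over 11 mice (Spearman's rho 0.54). It was r = 0.58 without the 2 mice farthest from the median and 0.47 without mouse 14. For heart LECs and heart BECs the values over 12 mice were r = 0.67 and rho 0.55, with r = 0.25 without the 2 farthest and 0.40 without mouse 14, so the relation rests in part on those mice. Heart BECs and cardiomyocytes, which were sequenced in different sets, gave r = 0.47 and rho 0.56 over 12 mice, and 0.55 without the 2 farthest. Diaphragm LECs and heart BECs gave r = 0.52 and rho 0.18 over 11 mice, and −0.29 without the 2 farthest. Diaphragm LECs and cardiomyocytes gave r = 0.12 and heart LECs and cardiomyocytes r = 0.33. Taken gene by gene, the deviations of 2 populations were positively correlated for 30 of the 35 members (85.7%) in heart LECs and diaphragm LECs, against 58.4% of all genes, with median r of 0.36 and 0.08. In the same order of values, heart LECs and heart BECs gave 29 members (82.9%) against 64.4%, and medians of 0.43 and 0.14. Heart LECs and cardiomyocytes gave 26 (74.3%) against 51.3%, and 0.25 and 0.01. Diaphragm LECs and heart BECs gave 27 (77.1%) against 60.4%, and 0.17 and 0.09. Diaphragm LECs and cardiomyocytes gave 23 (65.7%) against 46.6%, and 0.09 and −0.02. Heart BECs and cardiomyocytes gave 30 (85.7%) against 47.2%, and 0.39 and −0.02. The population pairs share libraries and the genes are not independent, so these shares are descriptions.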

How the data were processed

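RNA-seq values were analysed from 48 libraries of 4 cell populations under 3 treatments. The authors aligned the reads to GRCm38 with STAR 2.5.3a, quantified Ensembl genes with Salmon 0.12.0 and deposited the result in TPM, which keeps no read count, so depth is unknown and a TPM can rise because other genes fall. Near-identical copies (Ifit3 and Ifit3b, Ifit1 and its copies, Gbp2 and Gbp2b) may have exchanged reads, and their values are uncertain.

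Groups, mouse numbers, ages and batches came from the labels. The age was used in months as labelled, although the methods give weeks. The members and the other gene lists were chosen with earlier results of these data known. After a log2(TPM + 1) transformation, limma 3.58.1 (R 4.3.3) was run on the genes that reached 1 TPM in 3 or more libraries (variance trend, Benjamini-Hochberg adjustment over all genes tested, threshold 0.05). Treatments were fitted within each population with all 3 groups, and with age and batch as covariates (age alone for cardiomyocytes). The 3 endothelial populations shared 1 fit for the population differences and interactions, and cardiomyocytes were fitted with heart BECs without a batch term. Fold changes on this scale understate those of low genes.

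Libraries with the same mouse number come from the same animal across populations, and a fit with the mouse as a block was an alternative (correlation 0.13 within mice among endothelial libraries, 0.0186 for cardiomyocytes and heart BECs). The other alternatives were a pseudocount of 0.1, no filter, quantile normalization, no covariates, a covariate for the number of detected genes or for the first residual component, only the 2 groups compared, ctrl libraries only, and each library left out in turn. Covariates made from the BEC markers were added after seeing the data. Members named are those with an adjusted p under 0.05, up to 10 per direction, and where fewer than 3 passed, the 3 with the smallest unadjusted p, with the others under the unadjusted threshold listed. Members described per library beyond these (such as Irgm1 across populations) were chosen after their values were seen. Code was tested on simulated data. Figures were drawn in Python 3.11.15 with matplotlib 3.10.9. One gene of the pathway is not reported here.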

Additional observations from a re-analysis of the deposited data

Results flagged for a closer look

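Parp14 stood at 84.73 TPM in the diaphragm LEC library of angII mouse 4, the highest of 5 and farther from the next value (24.64 TPM) than Dixon's 95% limit allows. In all, 52 groups of named members and 8 groups of the member mean were tested in this way, and chance alone flags about 1 in 20 groups. That library also stood apart from its population as a whole.

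The mean TPM of Ifitm3 differed in opposite directions in 2 populations when angII+VEGFC was compared with ctrl. In diaphragm LECs its mean was lower in angII+VEGFC, a difference of −423.3 TPM, with ctrl libraries at 5250 to 5871 TPM and angII+VEGFC libraries at 4883 to 5181 TPM. In cardiomyocytes its mean was higher, a difference of 318.3 TPM, with ctrl libraries at 951 to 1025 TPM and angII+VEGFC libraries at 1159 to 1469 TPM. The groups did not overlap in either population, but with 4 ctrl and 3 angII+VEGFC libraries such separation can arise by chance. Ifitm3 was flagged by a rule for differences between groups. Neither the number of comparisons that the rule covered nor the share of all genes that separate in this way is given. In the fits with covariates, Ifitm3 was under the unadjusted threshold in neither population. The difference between the populations was not tested.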

How the results depend on the processing

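Of 414 counts of members called under alternatives, 410 stayed within 1.5 times the main count. The main count was 0 in every treatment comparison and every interaction, and a count that stayed at 0 is included in the 410. The figure therefore says little about the comparisons in which members were called. With the number of detected genes as a covariate, 1 member was called in cardiomyocytes for angII+VEGFC against ctrl, 1 in the interaction of angII against ctrl between heart LECs and heart BECs (Gbp3, 1.80 log2 units) and 14 between heart and diaphragm LECs. With ctrl libraries only, 1 was called between heart and diaphragm LECs. With the mouse as a block, this pairing gave 30 members between heart LECs and BECs, 11 between heart and diaphragm LECs, 33 between cardiomyocytes and BECs and 0 in the interactions. Leaving out each library gave 29 to 30, 8 to 12 and 33.

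The counts at an unadjusted p under 0.05 moved more, and with few members past the threshold they are limits of the data rather than results. In heart LECs, angII against ctrl (8) gave 5 with quantile normalization, 5 with no covariates and 2 with either BEC marker covariate. The count for angII+VEGFC against angII (8) was 13 with the detected genes and 1 with either BEC marker covariate, and that for angII+VEGFC against ctrl (4) was 2 with no filter and 2 with quantile normalization. In diaphragm LECs, angII against ctrl (3) gave 8 with the residual component, 1 with only the 2 groups and 0 with the BEC markers other than Ly6c1. The count for angII+VEGFC against angII (1) was 4 with the detected genes, 3 with no covariates, 3 with the residual component and 2 with the BEC markers other than Ly6c1, and that for angII+VEGFC against ctrl (0) was 2 with no covariates, 2 with the residual component and 4 with only the 2 groups. In heart BECs, angII against ctrl (1) gave 3 with the detected genes and 4 with only the 2 groups, angII+VEGFC against angII (0) gave 1 with quantile normalization, and angII+VEGFC against ctrl (5) gave 8 with the detected genes. In cardiomyocytes, angII against ctrl (5) gave 8 with the detected genes and 8 with the residual component, angII+VEGFC against angII (3) gave 0 with no covariates and 1 with only the 2 groups, and angII+VEGFC against ctrl (8) gave 5 and 4 with the same settings. The causes were not tested.

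With each library left out, these counts ranged in heart LECs from 4 to 7, 3 to 10 and 2 to 4 for angII against ctrl, angII+VEGFC against angII and angII+VEGFC against ctrl. In diaphragm LECs they ranged from 0 to 5, 0 to 2 and 0 to 1, in heart BECs from 0 to 7, 0 to 6 and 1 to 9, and in cardiomyocytes from 2 to 7, 0 to 7 and 1 to 9. Of the named members, Xaf1 in diaphragm LECs (angII against ctrl) turned to 0.1372 log2 units with the detected genes as a covariate, and Usp18 in diaphragm LECs (angII+VEGFC against ctrl) ranged from −0.8391 to 0.0498 with each library left out, positive without ctrl mouse 5. The member median in heart LECs for angII against ctrl was 0.72 log2 units with the detected genes and −0.10 with the BEC markers. The median over all genes in these settings is not given. Between heart and diaphragm LECs the 9 named members kept their direction under the alternatives run, and 8 of them lost the call with ctrl libraries only.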
